A study of Mus musculus with 2 samples.

Results

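Signals of 10 genes for collagen binding and matrix remodelling were compared between D351 and D16, 2 clones of mouse mesoangioblasts, on Affymetrix U74B arrays. The genes were Itga11, Col5a2, Aspn, Sned1, Fbn2, Fbln5, Efemp1, Adamts5, Mmp23 and Pcsk6. They were found as the probe sets whose platform annotation gives exactly 1 gene symbol that is one of these names. That gave 16 probe sets of the 12411 on the array that are not controls, and 10 genes of 7542 named ones. The genes were selected on their D351 and D16 signals in these same arrays, so the values below describe them and were put to no test.

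Mesoangioblasts are vessel-associated progenitor cells that can form several mesodermal cell types. Clone D351 (1 array) and clone D16 (1 array) had the same origin. Explants of dorsal aorta, taken from C57BL6 embryos at day 9.5, were kept for 5 days. Their cells were then cloned by limiting dilution in RPMI with 20% fetal calf serum, above mitomycin C-treated embryonic fibroblasts, and the clones were expanded on gelatin. Neither clone is described as carrying a transgene or receiving a treatment. Each culture descends from 1 founder well and gave 1 RNA sample and 1 array, so no value has a replicate error and no p-value was computed. In such cultures, fewer cells of one type and less RNA per cell cannot be told apart.

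The extracellular matrix is a meshwork that cells secrete, hold through receptors and cut with proteases. Integrins are paired surface receptors, and those that bind collagen link the fibrils outside the cell to the actin cytoskeleton inside it. Fibrils of collagen take their width in part from minor collagens and from small proteoglycans on their surface, while fibrillin microfibrils and fibulins carry the elastic fibres of vessel walls. Secreted and membrane-bound metalloproteinases trim this material, and many of them are made as inactive precursors that proprotein convertases cut.

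The deposited signals are linear intensities, with a sum of 646285 on the D351 array and 653854 on the D16 array and medians of 16.9 and 16.6. A floor of 16.8, the median of both arrays pooled, was used below: lower signals were set to it, and log2 ratios of D351 over D16 followed from that. A ratio with 1 clone under the floor is therefore a bound, and a probe set under it in both clones has no ratio. Over the 1113 genes with more than 1 measured probe set, the log2 ratios of the brightest pair differed with an SD of 0.71, which covers probe design and not the spread between cultures. Bacterial control transcripts (9 at the floor) had a median log2 ratio of -0.52, with 8 of 9 higher on the D16 array. Of the marker lists, the 17 endothelial genes had 4 with a named probe set, with summed signals of 64.7 in D351 and 34.4 in D16, and Eng, Esam and Robo4 were under the floor in both clones. The measured one, Flt1, read 44.5 in D351 and 10.3 in D16 (at least 2.65-fold higher in D351). The 9 mural genes had 3, with sums of 37.3 and 93.0, and Rgs5 and Abcc9 under the floor in both. The measured mural gene, Cspg4, read 26.1 in D351 and 83.3 in D16 (3.19-fold lower in D351). The 11 smooth muscle genes had 6, with sums of 1560.5 and 953.4, and Actg2, Synpo2 and Myocd under the floor in both. Of these, the kinase gene Mylk read 148.5 in D351 and 21.1 in D16 (7.04-fold higher in D351), Cald1 read 1357.6 in D351 and 874.9 in D16, and Myh11 read 35.6 in D351 and 36.8 in D16. The 8 macrophage genes had 0, and of 8 cartilage, bone and tendon genes Sox9 alone had one (58.1 in D351 and 125.3 in D16). The part of such cell types in the results below was not tested. Defining genes such as Pecam1, Cdh5, Pdgfrb, Acta2 and Tagln had no named probe set here, so the labelled cell type was checked only in part.

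With each gene represented by its probe set of highest mean signal, 8 of the 10 genes stood at least 2-fold higher in D351, 1 was at least 2-fold lower and 1 lay between. Among all 4916 measured genes, 9.5% were at least 2-fold higher and 8.58% at least 2-fold lower. Counted by probe set, 11 of the 14 at the floor in either clone were at least 2-fold higher and 1 was lower, where 9.23% and 7.99% of all measured probe sets were. Since these ratios guided the choice of the genes, nothing is read from the difference in share. The log2 ratios ran from -2.05 for Efemp1 to at least 5.20 for Itga11, and their median was 2.73, against -0.01 for all measured genes. In 6 of the 10 genes D16 was under the floor while D351 was at or above 53.5, the 75th percentile of the pooled signals. Of all measured genes, 61 (1.24%) had that pattern, and 32 (0.651%) had the reverse.

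**Figure D1:**
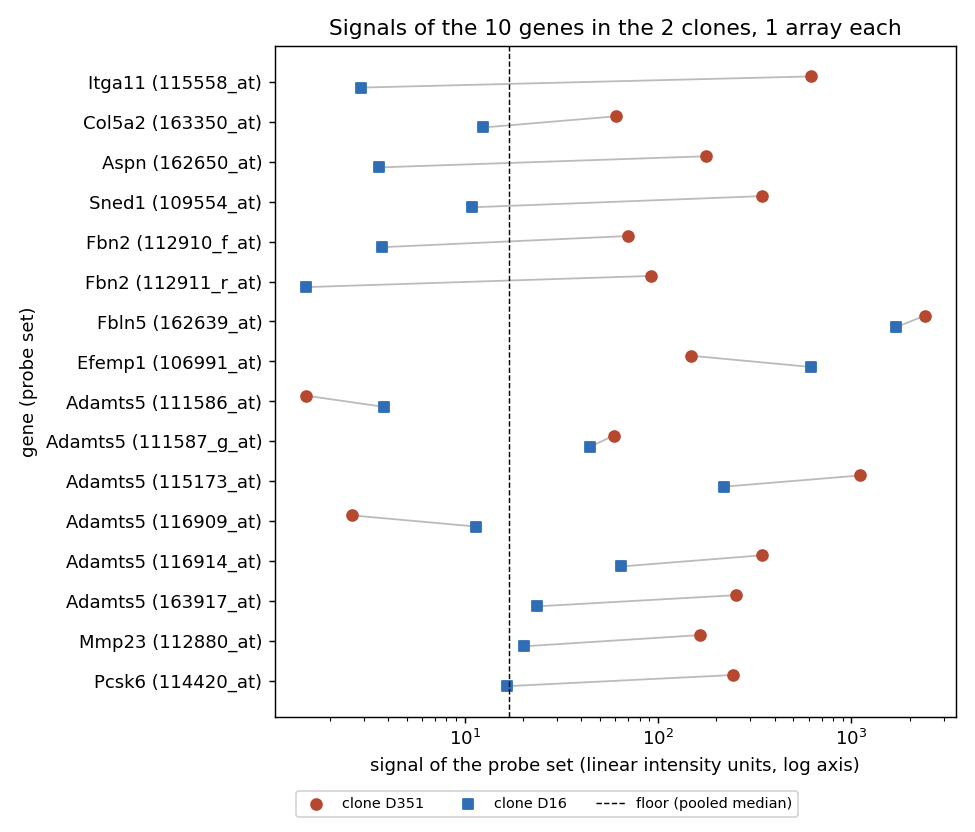
Signal of each of the 16 probe sets (log axis, linear intensity units) in clone D351 (circles) and clone D16 (squares), 1 array each, with a dashed line at the floor of 16.8. Itga11 lies at 617.2 in D351 and 2.9 in D16, Efemp1 and 2 dim Adamts5 probe sets are the rows with D351 on the left, and both Fbln5 points lie far right of the floor.

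The largest bound was that of the receptor, though bounds do not fix the order of the ratios. Itga11 encodes the alpha subunit of a fibrillar collagen receptor that pairs with the beta 1 chain and is made by mesenchymal cells. Its probe set (115558_at) read 617.2 in D351 and 2.9 in D16, so the gene was at least 36.7-fold higher in D351. D16 lay below even the 25th percentile of the pooled signals, 4.6, and with that lower floor the log2 ratio was at least 7.07. The beta 1 partner gene, Itgb1, and the other collagen-binding alpha chains Itga1, Itga2 and Itga10 had no named probe set here, so the receptor was measured on its alpha side alone.

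The collagen fibril was represented by a chain of type V collagen and by a proteoglycan. Col5a2, whose chain is built into type V collagen, a minor fibrillar collagen that helps to start and narrow collagen I fibrils, read 60.1 in D351 and 12.4 in D16 on its probe set (163350_at). This amounts to at least 3.58-fold higher in D351, and it is a ratio that rests on the floor: with the floor at 53.5 it shrank to a log2 value of at least 0.17. Col5a3, another chain of the same collagen type, read 23.6 in D351 and 10 in D16, a log2 ratio of at least 0.49, a bound from which it cannot be told whether 2-fold was reached. Aspn encodes asporin, a small leucine-rich proteoglycan that binds collagen I and TGF-beta. It read 177.4 in D351 and 3.6 in D16 (162650_at), at least 10.6-fold higher in D351 and, like Itga11, below the 25th percentile in D16.

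Sned1 encodes a secreted matrix glycoprotein with fibronectin type III and EGF-like repeats. Its probe set (109554_at) read 342.8 in D351 and 10.8 in D16, at least 20.4-fold higher in D351. Together with Itga11, Aspn and Pcsk6 it was among the 11 of all measured genes (0.224%) that were at least 10-fold higher in D351, of which these 10 genes held 4. At 5-fold or more they held 7 of 53 (1.08% of all measured genes). Bounds were counted at their bound, so further genes may have reached these folds. The 10 genes were chosen on these ratios, so nothing is read from their part in these counts.

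**Figure D2:**
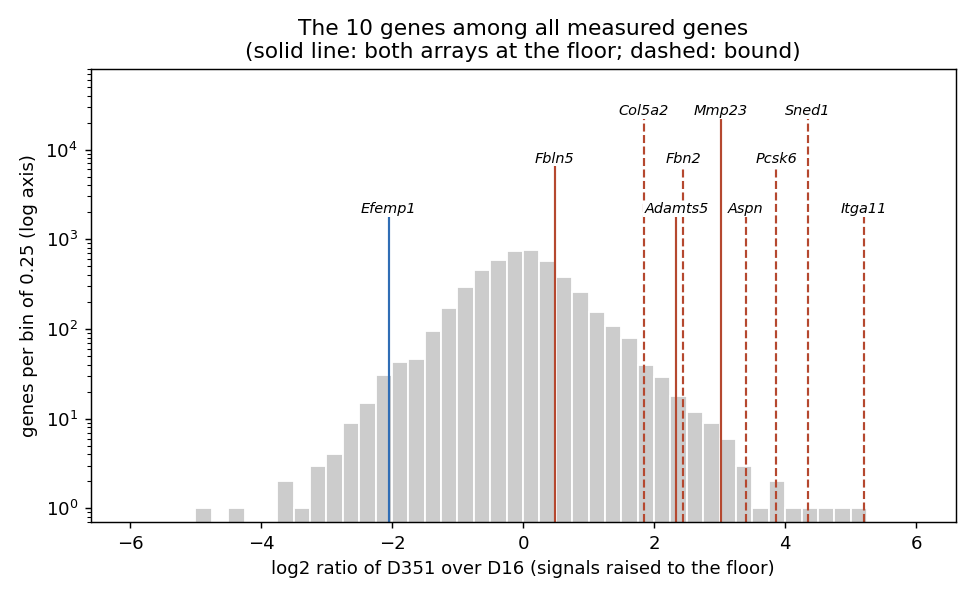
Number of measured genes (log axis) per bin of the log2 ratio of D351 over D16, with the 10 genes as vertical lines, solid where both clones reached the floor and dashed where the ratio is a bound. Itga11 stands at the right end at 5.20, Fbln5 at 0.49 lies in the bulk, and Efemp1 at -2.05 is the line left of 0.

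Windows around the annotated starts of some of these genes are shown as a description, with Efemp1 included as the 1 gene lower in D351. The genes were selected on these same signals, and 1 array per clone cannot show whether they vary together. RefSeq windows on GRCm38.p6 ran from 250 bases before to 50 bases after a transcript start. Those used were found by symbol and covered 7 of the 10 genes, as 9 windows. Col5a2, Fbn2 and Adamts5 had no window among those used, so the match counts do not cover these genes. The windows of Itga11, Sned1 and Aspn, each with D16 under the floor, are printed with that of Efemp1, in lower case. Capitals mark matches, on either strand, of the TATA box (TATAAA), the GC box (GGGCGG), the E-box (CANNTG), the AP-1 site (TGANTCA) and the Smad core site (GTCTG).
Itga11, chr9:62677605-62677904, plus strand: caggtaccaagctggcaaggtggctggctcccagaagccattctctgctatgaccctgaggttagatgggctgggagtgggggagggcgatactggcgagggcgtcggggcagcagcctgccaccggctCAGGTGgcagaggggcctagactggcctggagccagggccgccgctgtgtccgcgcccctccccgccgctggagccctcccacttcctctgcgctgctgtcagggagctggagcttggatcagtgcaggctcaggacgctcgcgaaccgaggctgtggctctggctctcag
Sned1, chr1:93235647-93235946, plus strand: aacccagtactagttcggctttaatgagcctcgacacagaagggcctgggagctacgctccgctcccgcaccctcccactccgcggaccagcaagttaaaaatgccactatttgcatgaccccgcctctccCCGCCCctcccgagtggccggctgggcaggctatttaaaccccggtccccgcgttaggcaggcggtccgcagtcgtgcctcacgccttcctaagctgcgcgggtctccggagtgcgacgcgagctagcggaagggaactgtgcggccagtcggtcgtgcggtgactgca
Aspn, chr13:49544193-49544492, plus strand: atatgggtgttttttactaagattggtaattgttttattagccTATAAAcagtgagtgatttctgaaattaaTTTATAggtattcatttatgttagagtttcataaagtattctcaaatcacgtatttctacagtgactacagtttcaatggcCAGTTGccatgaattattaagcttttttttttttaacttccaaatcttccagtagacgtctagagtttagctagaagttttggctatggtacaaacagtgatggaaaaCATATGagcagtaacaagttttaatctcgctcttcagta
Efemp1, chr11:28852955-28853254, plus strand: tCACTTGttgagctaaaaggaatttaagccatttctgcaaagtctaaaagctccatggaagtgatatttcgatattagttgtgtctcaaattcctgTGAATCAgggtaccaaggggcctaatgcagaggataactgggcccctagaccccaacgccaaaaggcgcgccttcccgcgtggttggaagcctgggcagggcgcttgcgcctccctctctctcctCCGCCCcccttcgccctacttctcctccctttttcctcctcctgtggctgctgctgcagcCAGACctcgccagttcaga

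The 4 windows had few matches in common. Itga11 held 1 E-box, beginning 121 bases before the start, and no other match. Sned1 held 1 GC box, 119 bases before the start. Aspn held 2 TATA boxes, with first bases 207 and 178 bases before the start, and 2 E-boxes. Efemp1 held the 1 match of the AP-1 pattern found in any of the 9 windows, 154 bases before its start. That match reads TGAATCA, and the pattern allowed any base at its centre. Efemp1 also held a GC box, an E-box and a Smad core site. Of all 32851 RefSeq windows, 13.6% held a TATA box, 35.7% a GC box, 72.3% an E-box, 7.81% a match of this AP-1 pattern and 49.6% a Smad core site. The CArG box, the recognition sequence of serum response factor, was in 0 of the 9 windows and in 1.63% of all windows. No match overlapped another (0 overlaps). The share of G and C ran from 31.0% in Aspn to 68.0% in Itga11 and 81.7% in Pcsk6, against a median of 52.7% over all windows, so the windows differed widely in base composition.

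The microfibril and fibulin genes went different ways. Fbn2 encodes fibrillin-2, a microfibril protein made mainly during development. It was read by a pair of probe sets, both of relaxed or shared design, so its value rests on no plain probe set. The _r probe set (112911_r_at) read 91.5 in D351 and 1.5 in D16, and the _f probe set (112910_f_at) read 69.5 in D351 and 3.7 in D16. Both were higher in D351, at least 5.45-fold and at least 4.14-fold. With the floor at 53.5 both fell short of 2-fold, at log2 ratios of at least 0.77 (_r) and at least 0.38 (_f).

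Fbln5 and Efemp1 belong to the fibulin family, secreted proteins with calcium-binding EGF-like repeats. Fbln5, which binds tropoelastin and is needed for elastic fibres, read 2389.6 in D351 and 1707.0 in D16 (162639_at). This 1.40-fold difference (log2 0.49) stayed under the 2-fold rule. It is close to the SD of 0.50 per probe set, taken from the pairs of probe sets of the same gene. That SD does not cover the spread between cultures. Efemp1, which encodes fibulin-3, read 148.1 in D351 and 613.9 in D16 (106991_at), 4.15-fold lower in D351. Of all measured genes 67 (1.36%) were at least 4-fold lower in D351. Both clones were far above the floor for both fibulins, so these ratios did not move with the floor.

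The proteases were higher in D351. Adamts5, an aggrecanase that also cuts versican, was read by 6 probe sets, of which 4 reached the floor. The brightest (115173_at) read 1111.6 in D351 and 219.3 in D16, 5.07-fold higher in D351. Another plain probe set (116914_at) read 345.1 in D351 and 64.5 in D16, 5.35-fold higher. One more (163917_at) read 251.9 in D351 and 23.5 in D16, 10.7-fold higher. These 3 were designed from different cDNA sequences and lay in the same direction. The _g probe set (111587_g_at) read 59.0 in D351 and 44.2 in D16, a log2 ratio of 0.42. The other two, 111586_at with 1.5 in D351 and 3.8 in D16, and 116909_at with 2.6 in D351 and 11.4 in D16, were under the floor in both clones. The probe sets 111586_at and 111587_g_at were designed from the same cDNA sequence. Thus 3 of the 6 probe sets for the gene carried the difference, and which of them read the full transcript was not tested.

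Mmp23, a membrane-anchored metalloproteinase that a convertase-type cut releases, read 164.4 in D351 and 20.3 in D16 (112880_at). It was 8.10-fold higher in D351, with D16 just above the floor. Pcsk6, the proprotein convertase also known as PACE4, read 245.0 in D351 and 16.5 in D16 (114420_at), and was at least 14.6-fold higher in D351. Here D16 lay just under the floor, so the bound is close to the ratio of the signals as deposited. Pcsk6 cuts precursors at basic residues, among them TGF-beta family ligands and, in human cartilage, aggrecanase precursors. A messenger RNA level does not show whether any precursor was cut in these cultures.

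**Figure D3:**
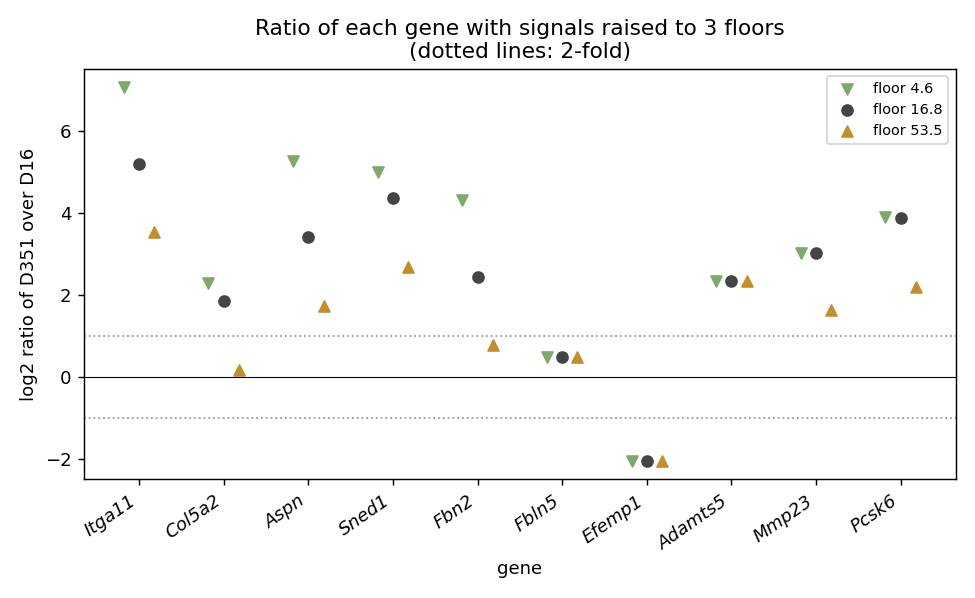
Log2 ratio of D351 over D16 for each gene with signals raised to a floor of 4.6 (triangles down), 16.8 (circles) or 53.5 (triangles up), with dotted lines at 2-fold. Itga11 spans 7.07 to 3.53, Col5a2 and Fbn2 drop inside the dotted lines at the highest floor, and Fbln5, Efemp1 and Adamts5 have the same ratio at each floor.

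To set these genes beside others of the same pathways, 8 lists of matrix genes were used. They named 272 genes, of which 82 had a named probe set and 44 were measured. With the 10 genes left out, 34 other matrix genes were measured, 6 of them at least 2-fold higher and 3 at least 2-fold lower in D351, beside 9.5% and 8.58% of all measured genes. Their median log2 ratio was 0.24, with 24 of 34 above 0, beside 48.8% of all measured genes. The lists were written with earlier results of these data known, so nothing is read from these shares. A further 38 listed genes, among them 6 collagens and 11 matrix glycoproteins, were under the floor in both clones. The floor set these counts, which came to 14 higher and 5 lower of 54 measured for a floor at the 25th percentile, and to 2 higher and 3 lower of 22 at the 75th.

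Other matrix receptors went both ways. Of 5 measured besides Itga11, 2 were at least 2-fold higher and 1 at least 2-fold lower in D351. Sdc3, a heparan sulfate proteoglycan of the cell surface, read 328.9 in D351 and 73.9 in D16 (4.45-fold higher in D351), while Sdc4, the syndecan of focal adhesions, read 29.5 in D351 and 130.8 in D16 on an _s probe set (4.43-fold lower). Itga9, the alpha chain of a tenascin receptor, read 53.6 in D351 and 9.5 in D16 (at least 3.19-fold higher), but its other probe set was under the floor in both clones (2.8 in D351 and 2.2 in D16). Mrc2, an endocytic collagen receptor, read 307.8 in D351 and 246.2 in D16, and the hyaluronan receptor Cd44 read 1092.5 in D351 and 1164.5 in D16. Both of these were close to equal in the clones, at log2 ratios of 0.32 and -0.09.

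Of 3 measured collagens besides Col5a2, 0 passed the 2-fold rule with the floor at 16.8, though Col5a3 is a bound. Col16a1 read 144.6 in D351 and 151 in D16, and Col27a1 read 34.6 in D351 and 22.7 in D16. Of 6 measured collagen-processing enzymes 1 was at least 2-fold higher in D351 and 0 were lower. That one was P4ha1, a prolyl hydroxylase that stabilises the collagen helix, with 41.7 in D351 and 9.2 in D16 (at least 2.48-fold higher). The lysyl hydroxylases Plod1 (log2 -0.66) and Plod2 (0.46) lay on either side of 0. Podn, another small leucine-rich proteoglycan, read 54.0 in D351 and 18.4 in D16 (2.93-fold higher). It was the single measured gene of the proteoglycan list besides Aspn.

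Among 10 other measured microfibril and elastic fibre genes, 1 was at least 2-fold higher and 1 at least 2-fold lower in D351. Emilin1, a glycoprotein of elastic fibres, read 209.7 in D351 and 77.3 in D16 (2.71-fold higher), and Adamtsl5, a secreted ADAMTS-like protein, read 62.5 in D351 and 131.2 in D16 (2.10-fold lower). Among 7 other measured proteases and inhibitors, 1 was at least 2-fold higher and 1 at least 2-fold lower. Mmp16, a membrane-type metalloproteinase, had the largest ratio of these 7 in either direction, with 21.3 in D351 and 130.3 in D16 (6.12-fold lower in D351), opposite to Mmp23. Adamts12 read 77.5 in D351 and 36.5 in D16 (2.12-fold higher). Adamts4, the other main aggrecanase, read 32.5 in D351 and 38.0 in D16, a log2 ratio of -0.23, unlike Adamts5. Of the 9 proprotein convertases listed, Pcsk6 alone had a named probe set.

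**Figure D4:**
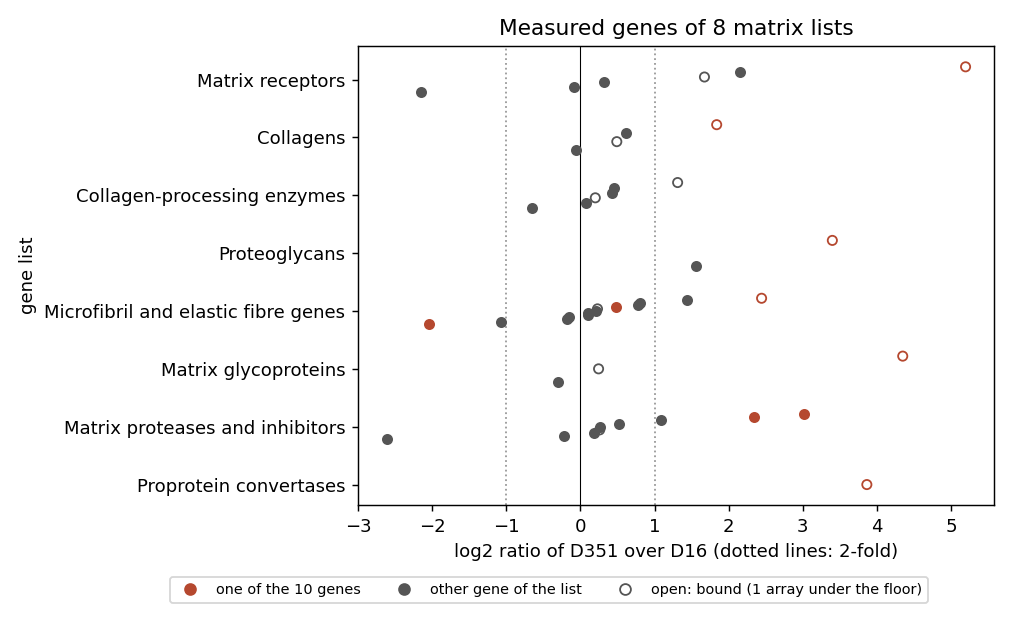
Log2 ratio of D351 over D16 for each measured gene of 8 matrix lists, with the 10 genes in red, other genes in grey and bounds as open circles. The grey points lie mostly between the dotted lines at 2-fold, with Sdc4 and Mmp16 at -2.15 and -2.61 and Sdc3 at 2.15.

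Embryonic fibroblasts are the kind of cell used as the feeder layer at cloning. Of 23 markers of such cells, 2 had a named probe set, and both were measured and higher in D351. Prrx1, a transcription factor of limb and craniofacial mesenchyme, read 546.8 in D351 and 149.3 in D16 (3.66-fold higher), and Cd248, a stromal surface protein, read 564.0 in D351 and 238.9 in D16 (2.36-fold higher). Their summed signals were 1110.8 in D351 and 388.2 in D16, and neither was near 0 in D16. Of the 10 genes, which were chosen on these ratios, 8 were at least 2-fold higher in D351, beside 9.5% of all measured genes. Fbln5 differed 1.40-fold and Efemp1 was 4.15-fold lower. The part of feeder cells in the differences was not tested.

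The 10 genes lie on 9 different chromosomes, with Col5a2 and Sned1 both on chromosome 1. For each, the 3 nearest measured genes on either side in the RefSeq gene order were taken, 60 genes in all, read on the same arrays. Of these neighbours 6 were at least 2-fold higher and 6 at least 2-fold lower in D351, and their median log2 ratio was 0.07, so their shares were near the 9.5% and 8.58% of all measured genes. The neighbours of Sned1 had log2 ratios from at most -1.59 (Pask, under the floor in D351) to 0.19. Those of Pcsk6 ran from -2.47 to at least 0.18, the latter for Snhg14, which read 19 in D351 and 3.7 in D16. Sned1 and Pcsk6 themselves had at least 4.35 and at least 3.87. Beside Itga11, Larp6, an RNA-binding protein that attaches to collagen messenger RNAs, read 47.4 in D351 and 7.3 in D16 (at least 2.82-fold higher). Beside Col5a2, Slc40a1, the iron exporter ferroportin, read 139.9 in D351 and 14 in D16 (log2 at least 3.06), and Slc39a10, a zinc transporter, had a log2 ratio of 1.03, while Tex30 read 31.3 in D351 and 88.4 in D16 (2.82-fold lower). Smim3 beside Fbn2 (log2 -1.09) and D16Ertd472e beside Adamts5 (log2 at most -1.17) also went against the gene they neighbour. Rwdd2b, also beside Adamts5, read 50.7 in D351 and 17.8 in D16 (log2 1.51) and went the same way as Adamts5. Dglucy beside Fbln5 (log2 1.13) and Slc35e2 beside Mmp23 (log2 1.08) went the same way as their neighbour too. Beside Efemp1, Fancl, a ubiquitin ligase of DNA repair, read 60.1 in D351 and 262.2 in D16 (log2 -2.13).

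Aspn lies within the span of another gene, Cenpp, which encodes a centromere protein. Cenpp read 37.5 in D351 and 68.5 in D16, a log2 ratio of -0.87, opposite to Aspn. Ecm2, a matrix gene inside the same span, was under the floor in both clones, with 0.4 in D351 and 2.9 in D16, and has no ratio. Mmp23 lies on chromosome 4, whose 294 other measured genes had a median log2 ratio of -0.35. It was higher in D351 against that median, as were, among others, Fbn2 on chromosome 18 (median -0.34) and Pcsk6 on chromosome 7 (-0.22). The 6 nearest measured neighbours of Mmp23 had a median of 0.47.

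**Figure D5:**
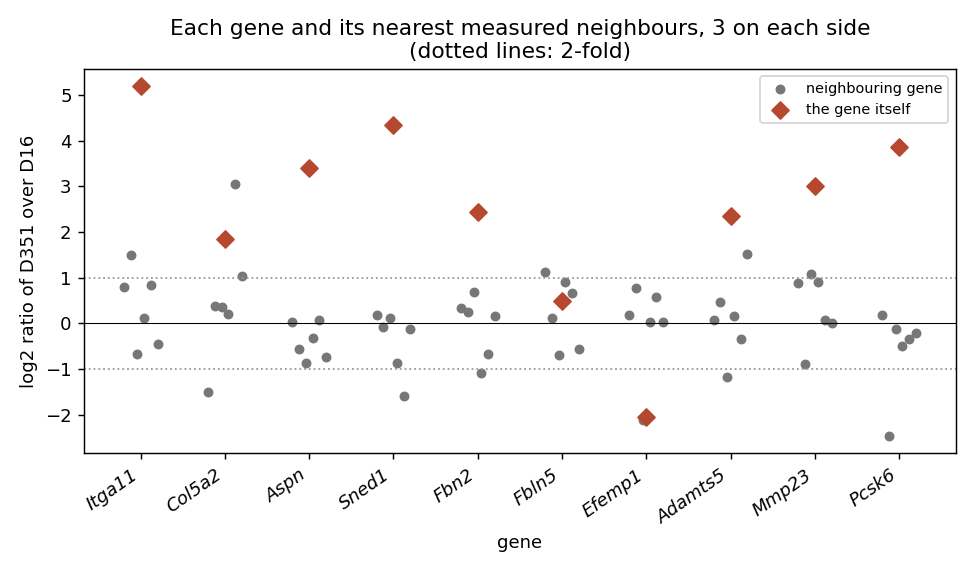
Log2 ratio of D351 over D16 for each gene (diamonds) and its 6 nearest measured neighbours (circles), with dotted lines at 2-fold. Most circles lie between the dotted lines, and the circle above 3 beside Col5a2 is Slc40a1.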

How the data were processed

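The authors' deposited value table holds linear intensity values per probe set for 1 array of clone D351 and 1 array of clone D16. The software, background correction and presence calls are not given in the sources used here. Both arrays had a mean of 40.0 once 2% of values were trimmed at each end, which is typical of scaling to 1 target, so a shift common to every transcript would not show. The values were used as deposited. The number of arrays limits the precision.

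The table held 66 controls, which were left out. Names came from GEO's platform annotation, updated by gene identifier to RefSeq names of GRCm38.p6: 10581 probe sets had 1 symbol. Those with several (178) or with none here (1652) were left unnamed. Probe set endings other than plain _at mark designs that are shared with related transcripts or relaxed. Values under the floor of 16.8 (pooled 50th percentile) were raised to it, and log2 ratios of D351 over D16 were computed, with no test. A gene passed at 2-fold or more with 1 array at or above the floor. The genes named were the 10 members, up to 6 others per list past 2-fold, and 24 fixed names (2 had a probe set); others illustrate a list or a neighbourhood. Members and lists were chosen with earlier results of these data known. Other settings were floors at the 25th (4.6) and 75th (53.5) percentiles, a loess correction (span 0.3), quantile normalization, a common median, rules of 1.5-fold and 3-fold or with a minimum difference, the median over probe sets, plain probe sets, and genes at the floor in both clones. The ratio script was tested on simulated data. The work used pandas 2.3.3, numpy 2.4.6, scipy 1.17.1, statsmodels 0.14.6 and matplotlib 3.10.9 under Python 3.11.15.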

Additional observations from a re-analysis of the deposited data

How the results depend on the processing

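No member changed direction under the settings tried, but most of these settings could hardly have reversed one. A change of floor or of fold rule cannot reverse a ratio. The arrays had medians of 16.9 in D351 and 16.6 in D16, so a common median moved ratios little. The genes were also chosen on these ratios, so nothing is read from the unchanged directions. Of 73 values of single members under other settings, 71 stayed on the same side of 2-fold and 2 came inside it, Col5a2 (log2 0.17) and Fbn2 (0.77), both with the floor at the 75th percentile, which by construction lowers bounds. The count of members at least 2-fold higher was 2 of 4 where both clones had to reach the floor, since the other 6 members then have no ratio. Among the other matrix genes, 14 were higher and 5 lower of 54 measured with the floor at the 25th percentile, 2 were higher and 3 lower of 22 with the floor at the 75th, and 2 were higher and 2 lower by a 3-fold rule. Their median log2 ratio ranged from 0.10 to 0.25. Plain probe sets alone leave Fbn2 without a value. No paired analysis was possible because each clone had 1 array, and for the same reason no replicate could be left out. Over the settings tried, the log2 ratio ranged from 3.53 to 7.07 for Itga11, 1.73 to 5.27 for Aspn, 0.77 to 4.31 for Fbn2, 2.68 to 4.99 for Sned1 and 0.17 to 2.28 for Col5a2, all with D16 under the floor.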
